A study of Mus musculus with 4 samples.

Results

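The Cdx, Meis and Pbx genes encode homeobox transcription factors that work with the Hox proteins, and 9 of them were followed here in wild-type (WT) and Cripto knockout (KO) mouse embryonic stem cells (ESCs) and in the cells that these became after 6 days of culture towards epiblast stem cells (EpiSCs). The 9 genes (Cdx1, Cdx2, Cdx4, Meis1, Meis2, Meis3, Pbx2, Pbx3 and Pbx4) were taken by name from the 37620 genes of the raw count table. Of these, 8 were among the 15462 genes that the authors' filter on low counts kept, and Cdx4 was not.

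The study compared 4 RNA-seq libraries of R1 ESCs of strain 129/Sv, each a condition of its own. WT and Cripto KO ESCs were grown with serum and leukaemia inhibitory factor (serum/LIF). The F/A cells of each genotype came from ESCs plated sparsely in N2B27 medium with bFGF and Activin A (20 ng/ml) and kept there for 6 days, and the labels call them EpiSCs in both genotypes. Cripto, encoded by Tdgf1, is the membrane-anchored co-receptor of Nodal signalling, and the sequenced Cripto KO clone is not named in the sources used here. With 1 library per condition there is no replicate spread, so no p-value was computed, and each interval below covers counting error between 2 libraries only.

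Cdx proteins are the caudal-type homeobox factors. They are best known for acting upstream of Hox genes in the posterior embryo, and Cdx2 also specifies trophectoderm and intestine. Meis and Pbx proteins belong to the TALE class of homeodomain factors, which carry a 3-amino-acid loop extension in the homeodomain. They bind DNA together and with Hox proteins as cofactors, and Meis partners are known to keep Pbx proteins in the nucleus.

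The libraries held 15230856 counts (WT F/A), 17315442 (WT serum/LIF), 15740587 (Cripto KO F/A) and 16260578 (Cripto KO serum/LIF). Cripto KO F/A stood apart from the others. Of its genes with counts, 0.0160% had an odd count against 53.1% to 53.6% elsewhere, so its counts were halved for all intervals, and 6 counts instead of 3 were taken as what a count of 0 allows. Tdgf1 had 18714 counts in WT serum/LIF against 945 in Cripto KO serum/LIF, and 1572 in WT F/A against 86 in Cripto KO F/A, in the direction of the labels in both media. Of 8 naive pluripotency markers kept by the filter, 8 had F/A values at least 2-fold under the serum/LIF values in both genotypes. Of all genes with a fold, 21.0% (WT) and 19.2% (Cripto KO) were lower by this measure. Primed epiblast markers were at least 2-fold higher in F/A in 6 of 7 in WT (22.1% of all genes) and 5 of 7 in Cripto KO (19.8%). However, 4 of these 7 markers were at least 2-fold lower in Cripto KO F/A than in WT F/A (4.97% of all genes).

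The promoters of Cdx2, Meis1 and Meis2 are given first, because these 3 genes were 2-fold or more higher in Cripto KO F/A than in WT F/A. Each runs from 250 bases before to 50 bases after the start of the gene in RefSeq, 5′ to 3′ on the minus strand, in build GRCm38.p6. The stretches lie at chr5:147307200-147307499 for Cdx2, chr11:19018920-19019219 for Meis1 and chr2:116064570-116064869 for Meis2. Capitals mark a match to 1 of 4 searched motifs.
Cdx2: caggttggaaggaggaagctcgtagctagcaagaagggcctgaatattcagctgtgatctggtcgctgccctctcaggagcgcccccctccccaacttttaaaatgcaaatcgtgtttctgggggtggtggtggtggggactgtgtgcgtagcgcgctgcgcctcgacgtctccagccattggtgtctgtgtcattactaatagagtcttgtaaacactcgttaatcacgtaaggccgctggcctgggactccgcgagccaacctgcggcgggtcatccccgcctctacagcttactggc
Meis1: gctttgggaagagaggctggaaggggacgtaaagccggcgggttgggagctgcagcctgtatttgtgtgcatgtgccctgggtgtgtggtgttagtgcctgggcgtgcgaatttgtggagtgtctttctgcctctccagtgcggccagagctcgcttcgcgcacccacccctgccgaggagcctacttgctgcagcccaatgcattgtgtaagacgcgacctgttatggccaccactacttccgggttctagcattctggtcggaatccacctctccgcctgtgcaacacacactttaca
Meis2: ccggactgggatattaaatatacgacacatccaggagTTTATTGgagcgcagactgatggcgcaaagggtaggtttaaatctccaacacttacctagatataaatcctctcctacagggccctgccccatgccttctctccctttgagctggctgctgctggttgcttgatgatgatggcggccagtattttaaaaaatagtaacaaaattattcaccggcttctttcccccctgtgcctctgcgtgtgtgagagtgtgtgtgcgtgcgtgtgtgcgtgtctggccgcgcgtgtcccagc

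The motifs, searched on both strands, were TTTATNG for Cdx, TGACAG for Meis, TGATNNAT for Pbx with Hox, and CTTTGNT for Tcf/Lef, the factors that Wnt signalling acts through. Meis2 held 1 match, to the Cdx motif, at position −213 from the start of the gene. Cdx2 and Meis1 held none of the 4. Of the 7 genes with a RefSeq promoter (all but Cdx1 and Pbx3), Pbx4 also held a Cdx match (at −33) and Cdx4 a Tcf/Lef match (at −46). Of all 32851 RefSeq promoters of this length, 10.9% held the Cdx motif, 19.2% the Meis motif, 8.85% the Pbx-Hox motif and 18.6% the Tcf/Lef motif. The base composition of the promoters differed among the members. Pbx2 had 76.0% G and C, more than 96.9% of RefSeq promoters, Meis3 66.7%, Cdx2 57.3%, Meis1 58.3%, and Cdx4 (50.3%) and Meis2 (51.0%) lay under the median of 52.7%.

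The 9 genes are spread over 8 chromosomes in the annotation of the authors' build (NCBIM37). Cdx2 (ENSMUSG00000029646) spans chr5:148112381-148118846 next to Pdx1, another gene of the ParaHox cluster. Meis1 (ENSMUSG00000020160) spans chr11:18780433-18918961 and Meis2 (ENSMUSG00000027210) chr2:115688800-115891575. Pbx3 (ENSMUSG00000038718) is also on chromosome 2, at 34026977 to 34228660, and covers 201684 bases, as Meis2 covers 202776. Pbx2 (ENSMUSG00000034673) lies at chr17:34728211-34734345, overlapping Gpsm3 on the same strand (34 to 114 counts per library). The strand setting of the authors' counting is not given in the sources used here. The genes that overlap Meis1 and Pbx3 had at most 2 counts in any library.

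Pbx transcripts were the most abundant and were present in all conditions, Meis transcripts were scarce in serum/LIF and abundant in F/A, and Cdx transcripts changed from Cdx1 to Cdx2 between the media. To compare genes, raw counts were scaled to 1000000 counts per library (CPM) and divided by the median length of the gene's annotated transcripts in kilobases (CPM per kb). The 3 Pbx genes summed to 53.8 CPM per kb in WT serum/LIF and 56.8 in Cripto KO serum/LIF, and to 118 in WT F/A and 156 in Cripto KO F/A. The 3 Meis genes summed to 3.20 and 4.46 CPM per kb in serum/LIF of WT and Cripto KO, and to 32.7 and 96.1 in F/A. For the 3 Cdx genes the sums were 1.82 and 2.17 CPM per kb in serum/LIF and 3.46 and 20.0 in F/A. Cdx1 made up 92.4% of the Cdx sum in WT serum/LIF and 97.3% in Cripto KO serum/LIF, whereas Cdx2 made up 87.2% in WT F/A and 94.8% in Cripto KO F/A. Within the Meis genes, Meis3 was the largest share in WT F/A (49.2%, Meis2 43.9%) and Meis2 in Cripto KO F/A (62.9%, Meis3 20.8%). Pbx2 was the largest share of the Pbx sum in all 4 libraries (60.5% to 66.0%).

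**Figure D1:**
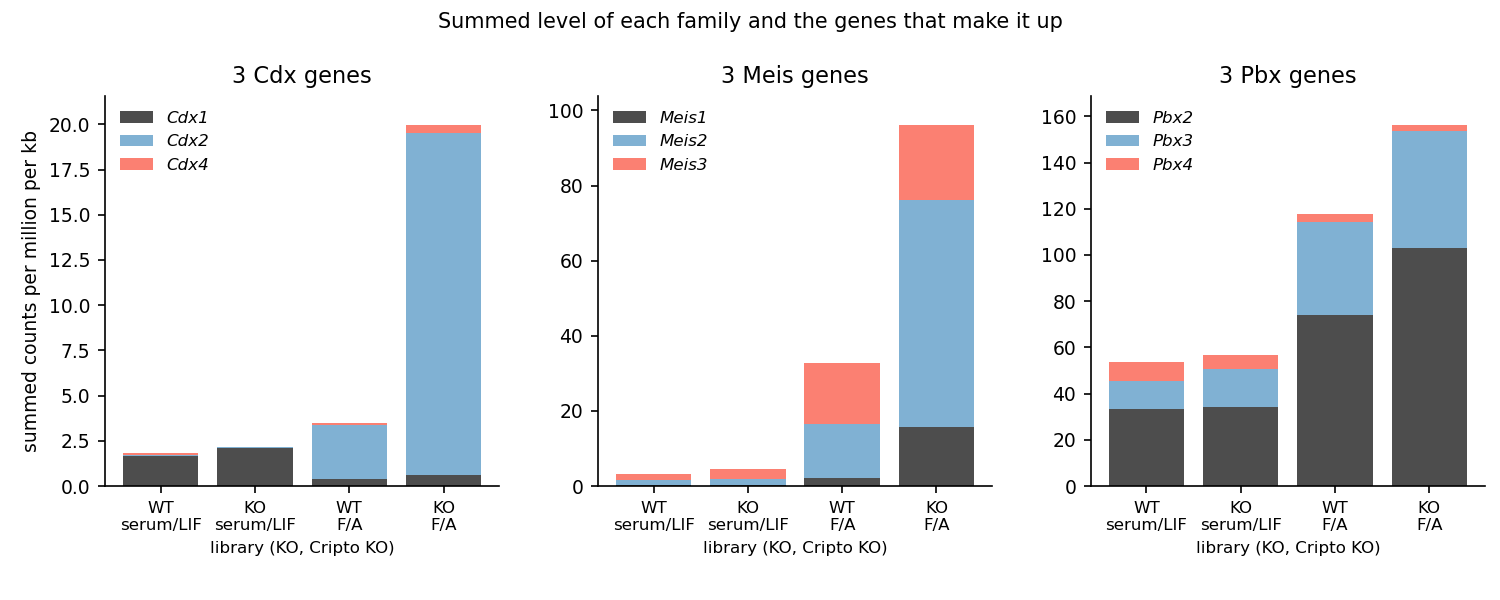
Summed level (CPM per kb, linear axes from 0, a scale of its own for each family) of the 3 Cdx, 3 Meis and 3 Pbx genes in each of the 4 libraries, stacked by gene. The Cdx column is mostly Cdx1 in serum/LIF and mostly Cdx2 in F/A, and the Meis sum goes from 32.7 in WT F/A to 96.1 in Cripto KO F/A.

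In the order of levels per length, Pbx2 stood first in all 4 libraries, with 33.4 and 34.3 CPM per kb in serum/LIF (WT, Cripto KO) and 74.1 and 103 in F/A. Pbx3 was next in 3 libraries, at 12.2, 16.3 and 40.1 CPM per kb in WT serum/LIF, Cripto KO serum/LIF and WT F/A. In Cripto KO F/A, Meis2 (60.5 CPM per kb, 95% Poisson interval 56.4 to 64.8) stood above Pbx3 (50.7, 45.7 to 56.1). These intervals did not overlap, but with the longest annotated transcript as the length they did (18.7, 17.4 to 20.0, and 16.9, 15.2 to 18.6). Lower in the order, many neighbours could not be told apart. In WT F/A, Meis3 (16.1) and Meis2 (14.4) had overlapping intervals, as did Pbx4 (3.57), Cdx2 (3.02) and Meis1 (2.25), each with the next. In Cripto KO F/A this was so for Meis3 (20.0), Cdx2 (18.9) and Meis1 (15.7), and in both serum/LIF libraries for Cdx1, Meis3 and Meis2 (1.23 to 2.52 CPM per kb) among themselves, and for Cdx4 and Cdx2 (0.0272 to 0.0883). Of the 32 pairs of neighbours over the 4 libraries, 18 had intervals apart, and 14 with the longest annotated transcript as the length.

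**Figure D2:**
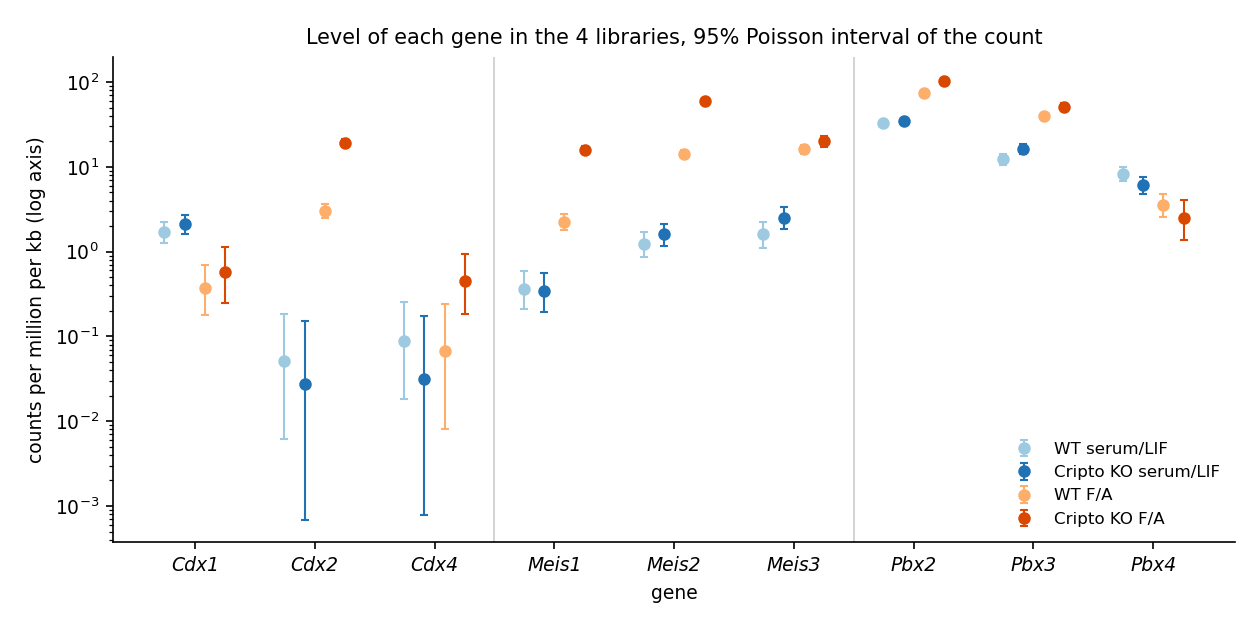
Level of each of the 9 genes (CPM per kb, log axis) in the 4 libraries, with the 95% Poisson interval of the count as bars. Pbx2 is the highest point in every library, and Cdx2, Meis1 and Meis2 show the widest steps from serum/LIF (blue) to Cripto KO F/A (dark orange).

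The first comparison asked how the genes differed between the EpiSC culture and the ESC culture in WT cells. Of the 8 members with a fold from the normalized values, 6 were 2-fold or more higher in WT F/A (22.1% of 15450 genes with a fold were higher) and 2 were 2-fold or more lower (21.0% of genes). The 6 were Cdx2, all 3 Meis genes, Pbx2 and Pbx3, and the 2 were Cdx1 and Pbx4. Their median log2 change was 2.21, beside −0.08 over all genes. In Cripto KO cells the same comparison put the same 6 genes 2-fold or more higher (19.8% of 15444 genes) and the same 2 lower (19.2% of genes), with a median log2 change of 2.22 beside −0.07. As these are bulk libraries, fewer cells of a type and less RNA per cell cannot be told apart.

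Among the cofactors, Pbx2 had 765 raw counts in WT serum/LIF and 1495 in WT F/A, and 739 and 2150 in Cripto KO. On the normalized values WT cells showed a log2 change of 1.06 and Cripto KO cells one of 1.55. Scaled by library totals, the F/A level was 2.22-fold (95% interval 2.03 to 2.43) and 3.01-fold (2.73 to 3.31) that in serum/LIF. Pbx2 was therefore the member nearest to the 2-fold limit in WT. Pbx3 went from 201 to 580 counts in WT (log2 change 1.68) and from 252 to 758 in Cripto KO (1.52). Both F/A libraries were above both serum/LIF libraries for Pbx2 and for Pbx3.

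Pbx4 was the Pbx gene that ran the other way. It had 110 counts in WT serum/LIF, 42 in WT F/A, 77 in Cripto KO serum/LIF and 30 in Cripto KO F/A, the lowest counts of the 3 Pbx genes in each library. The log2 changes were −1.20 in WT and −1.22 in Cripto KO, or 2.30-fold (1.60 to 3.37) and 2.48-fold (1.42 to 4.65) lower in F/A by the scaled counts. The change in WT was under 2-fold (log2 change −0.90) once the running median over transcript length was taken off.

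The Meis genes were low in serum/LIF and higher in F/A in both genotypes. Meis1 had 17 counts in WT serum/LIF and 92 in WT F/A, 15 in Cripto KO serum/LIF and 662 in Cripto KO F/A. Its log2 change was 2.74 in WT cells, and Cripto KO cells reached 5.49. Meis2 had 36 and 371 counts in WT and 44 and 1616 in Cripto KO, in the same order of media, with log2 changes of 3.67 and 5.19. For both genes the 2 serum/LIF libraries were close to each other and Cripto KO F/A was the highest library. Meis3 had 34 and 299 counts in WT and 50 and 384 in Cripto KO. Its log2 changes were 3.45 and 2.90, so that among the Meis genes Meis3 alone had the larger change in WT.

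Cdx1 and Cdx2 differed between the media in opposite directions. Cdx1 had 51 counts in WT serum/LIF and 60 in Cripto KO serum/LIF, against 10 in WT F/A and 16 in Cripto KO F/A. It was 4.49-fold (2.25 to 9.91) lower in F/A in WT and 3.63-fold (1.73 to 8.79) lower in Cripto KO by the scaled counts, with log2 changes of −2.03 and −1.68. Cdx2, by contrast, had 2 counts in WT serum/LIF and 1 in Cripto KO serum/LIF, and 104 and 674 in F/A. Because the serum/LIF counts were so few, the ratios were wide, 59.1 (16.0 to 495) in WT and 696 (124 to 27582) in Cripto KO. The log2 changes of 6.41 and 9.81 became 4.15 and 6.89 when 5 was added to every normalized value. Cdx4, the X-linked Cdx gene, had 3, 1, 2 and 14 counts in WT serum/LIF, Cripto KO serum/LIF, WT F/A and Cripto KO F/A, so that a ratio could be formed only with Cripto KO F/A, at 14.5 (1.86 to 652) over Cripto KO serum/LIF.

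**Figure D3:**
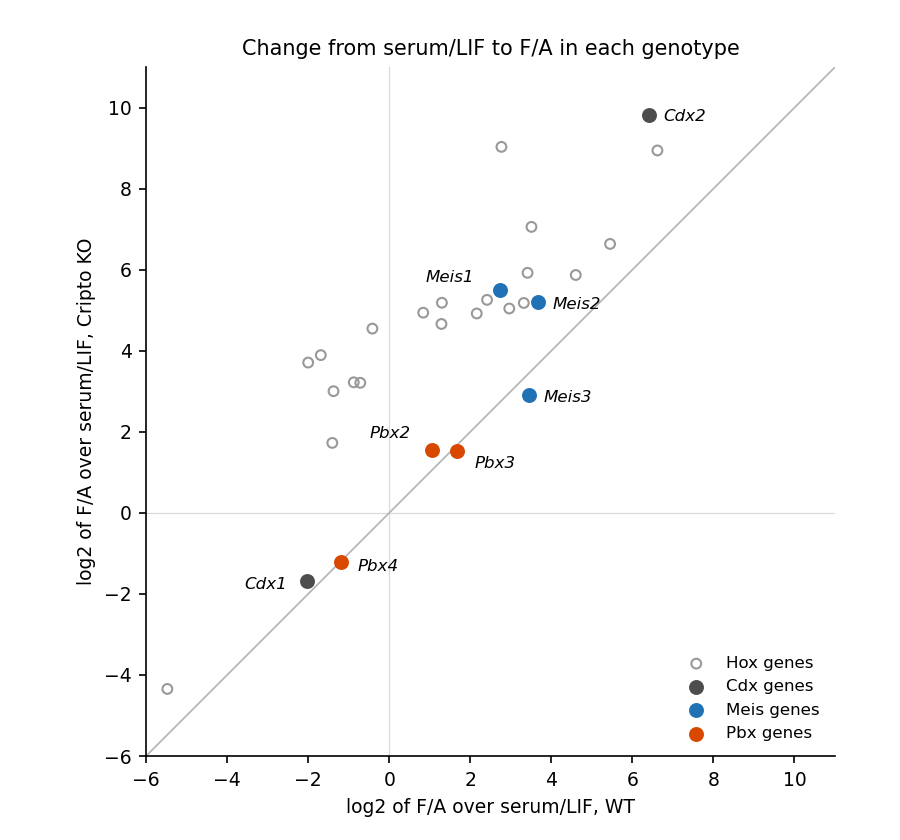
log2 of F/A over serum/LIF in WT (x axis) and Cripto KO (y axis), from normalized values, for 8 of the 9 genes (filled) and the Hox genes with both folds (open), with the line of equal change. Cdx2, Meis1 and Meis2 lie above the line (differences 3.41, 2.75 and 1.52), Meis3 below it, and Pbx3 and Pbx4 close to it.

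The next comparison, Cripto KO against WT in F/A, asked what the loss of Cripto changed in the EpiSC culture. Cdx2, Meis1 and Meis2 were higher in Cripto KO F/A than in WT F/A by 4-fold to 7-fold, and the other members differed by less than 2-fold or had too few counts. So 3 of 8 members were 2-fold or more higher (4.05% of 15001 genes) and 0 of 8 were 2-fold or more lower (4.97% of genes), and the median log2 difference of the 8 was 0.68 beside 0.01 over all genes.

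Meis1, with 662 counts against 92, was 6.96-fold (95% interval 5.51 to 8.87) higher in Cripto KO F/A, a log2 difference of 2.82. Cdx2, with 674 against 104, was 6.27-fold (5.02 to 7.89) higher, and Meis2, with 1616 against 371, 4.21-fold (3.72 to 4.78), at log2 differences of 2.67 and 2.09. The lower ends of these 3 intervals all lay above 3.7. Over the alternatives tried, the log2 difference stayed between 2.62 and 2.68 for Cdx2, 2.76 and 2.86 for Meis1, and 2.08 and 2.11 for Meis2. Cdx4 pointed the same way at 14 against 2 counts, with a ratio of 6.77 that was poorly fixed (1.29 to 66.8).

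Smaller differences were seen for the more abundant cofactors. Pbx2 was 1.39-fold (1.29 to 1.51), Pbx3 1.26-fold (1.11 to 1.44) and Meis3 1.24-fold (1.03 to 1.49) higher in Cripto KO F/A, with intervals above 1 but under 2-fold. Over all genes the log2 difference between these libraries moved with transcript length, from a median of 0.18 in the shortest eighth to −0.29 in the longest. With the running median over length taken off, the log2 differences of Pbx2, Pbx3 and Meis3 went from 0.54, 0.34 and 0.30 to 0.40, 0.18 and 0.19. Cdx1, at 16 against 10 counts, and Pbx4, at 30 against 42, had intervals that spanned 1 (0.531 to 4.36 and 0.356 to 1.27).

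In serum/LIF, where the comparison asked what Cripto KO changed before the transition, 0 of 7 members with a fold were called. Over all genes, 2.49% of 15158 were 2-fold or more higher and 2.50% lower in Cripto KO serum/LIF. The intervals of 6 of the 7 spanned 1. For Pbx2, the best counted member, the interval ran from 0.929 to 1.14. For Meis1, the least counted at 15 against 17 counts, its lower end was at 0.437, so that a level of Meis1 2-fold lower in Cripto KO would not be detectable at this depth. Pbx3, with 252 counts against 201, was 1.34-fold (1.10 to 1.62) higher in Cripto KO. Meis3 (50 against 34 counts) had an interval of 0.993 to 2.50, and Cdx2 and Cdx4 were at 3 counts or fewer in both libraries, where no ratio was formed.

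**Figure D4:**
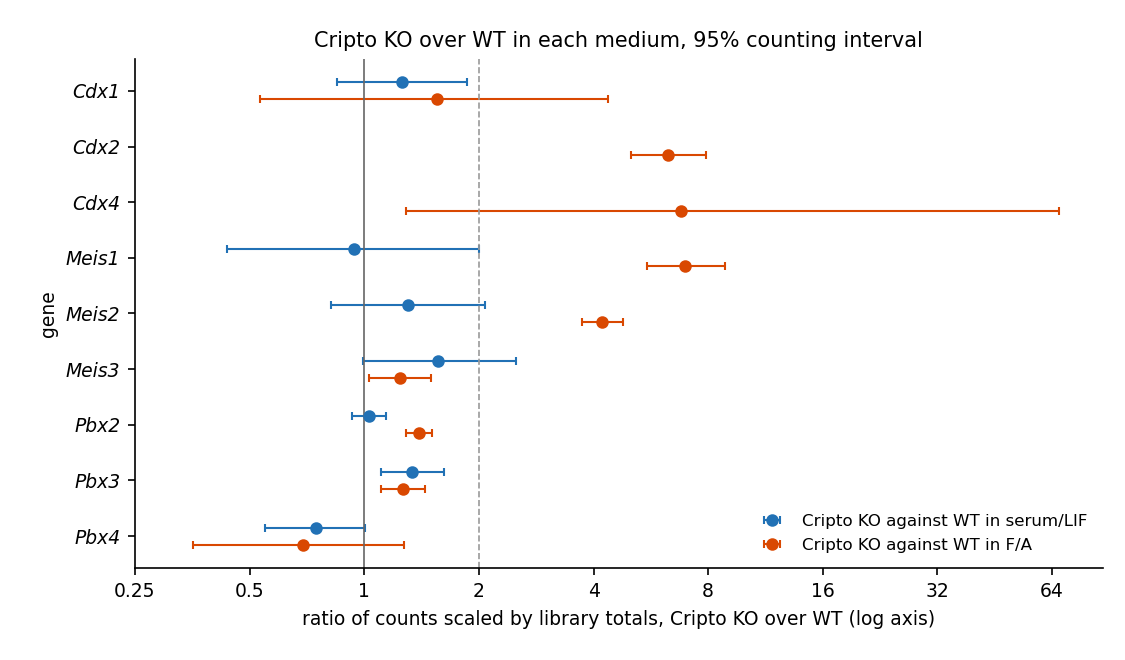
Ratio of Cripto KO over WT for each gene in serum/LIF (blue) and F/A (orange), from raw counts scaled by library totals (log axis), with 95% counting intervals. The solid line marks 1 and the dashed line 2. In F/A the intervals of Cdx2, Meis1 and Meis2 lie between 3.72 and 8.87, and in serum/LIF 6 of 7 intervals span 1.

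The genotypes were then compared in the size of the change between media, as the log2 change in Cripto KO minus that in WT. The difference was 3.41 for Cdx2, 2.75 for Meis1 and 1.52 for Meis2. A difference of 1 or more was found for 8.72% of 15432 genes, and one of −1 or less for 8.50%. Cdx2 stood above 99.4% of genes, Meis1 above 98.8% and Meis2 above 95.6%. No replicate error is available for these differences, and the value for Cdx2 rests on 2 and 1 counts in serum/LIF. Pbx2 (0.49), Cdx1 (0.35), Pbx4 (−0.02), Pbx3 (−0.17) and Meis3 (−0.55) had smaller differences. Cdx2, Meis1 and Meis2 were thus higher in F/A in both genotypes and higher in Cripto KO F/A than in WT F/A, a pattern held by 196 of 14974 genes (1.31%). These comparisons share libraries, so that they are not independent of each other.

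To see which genes had the profile closest to each member, normalized values were put on the log2 scale after adding 5 and centred over the 4 libraries, and the Euclidean distance was taken over 12847 protein-coding genes. This is a description over 4 libraries. The nearest gene to Cdx2 was Hand2 (distance 0.12), a bHLH factor of heart, limb and lateral mesoderm, with 81 counts in WT F/A, 584 in Cripto KO F/A and 0 in both serum/LIF libraries. Msx1 (0.24), a homeobox gene, and Unc5c (0.65), a netrin receptor, followed. For Meis1 the 3 nearest were all Hox genes, namely Hoxa2 (0.19), Hoxd9 (0.26) and Hoxb3 (0.35). Hoxa2 had 38 counts in WT F/A and 336 in Cripto KO F/A, and 5 and 6 in serum/LIF. For Meis2 they were Pmp22 (0.36), a myelin membrane protein gene, Foxc2 (0.44), a forkhead factor of mesoderm, and Popdc2 (0.51). Genes compared needed at least 50 counts in a library. Hoxa2, Hoxd9 and Popdc2 reached this only in Cripto KO F/A, so their nearness is not read as a result.

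The other members had nearest genes of other kinds. Srf, the serum response factor, was nearest to Pbx2 (0.02), followed by 9530068E07Rik (0.06) and Basp1 (0.07), and Mospd1 (0.07), Slc2a12 (0.11) and Glis1 (0.12) were nearest to Pbx3. Meis3 was nearest to Dusp8 (0.09), a MAP kinase phosphatase, Arhgap24 (0.10) and Ttyh3 (0.18). Among the members that were lower in F/A, Cdx1 was nearest to Fxyd6 (0.07), Chpt1 (0.12) and Mybpc2 (0.14), and Pbx4 to Paqr8 (0.06), 4930427A07Rik (0.07) and Tti1 (0.07). Between members the closest pairs were Pbx2 with Pbx3 (0.44), Meis1 with Meis2 (0.78) and Cdx1 with Pbx4 (0.95). The most distant pair was Cdx1 with Cdx2 (7.22).

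The protein-coding genes next to Cdx2, Meis1 and Meis2 were not 2-fold or more higher in Cripto KO F/A or had too few counts. Next to Cdx2, Pdx1 had 0, 0, 4 and 1 counts and Prhoxnb 0, 0, 2 and 0 in WT F/A, WT serum/LIF, Cripto KO F/A and Cripto KO serum/LIF. Beside Meis1, Etaa1 and Spred2 lay over 900 kb away and had log2 differences of 0.08 and −0.27 between Cripto KO F/A and WT F/A. BC052040, a neighbour of Meis2, had 0.19, and Tmco5 on the other side had 0 counts throughout. Of the neighbours of the other members, Pdgfrb, a receptor of mesenchymal cells that lies next to Cdx1, had 280 counts in WT F/A and 872 in Cripto KO F/A, a log2 difference of 1.60 where Cdx1 had 0.82. Between the media in WT, 4 of the 15 neighbours with a fold were 2-fold or more higher in F/A and 4 were lower, beside the 22.1% and 21.0% of all genes. Pbx2 lies between both kinds, with log2 changes of 3.60 for Ager and −1.17 for Notch4.

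The Hox genes, whose products pair with Meis and Pbx proteins, had summed levels of 33.8 CPM in WT F/A and 238 in Cripto KO F/A for the 11 genes of paralog groups 1 to 4, 2.49 and 56.4 for the 11 of groups 5 to 8, and 3.74 and 45.5 for the 16 of groups 9 to 13. Many of them had counts mainly in Cripto KO F/A and passed the filter through that library, so that the share of kept genes that were higher is not read as a result. Of 9 other TALE genes kept, 2 were 2-fold or more higher in Cripto KO F/A (4.05% of all genes), with Irx1 at 199 and 484 counts. In this list 0 were lower (4.97% of all genes), and the median was 0.39. The other higher gene, Irx4, had 14 counts in WT F/A, 44 in Cripto KO F/A, and 6 and 4 in serum/LIF. As its counts were mainly in Cripto KO F/A, its call is not read as a result. The number of higher TALE genes was 1 among genes with a mean of at least 50 counts and 4 with no filter and total-count scaling. Between media, 5 of these 9 were 2-fold or more higher in F/A, 0 lower and 4 under 2-fold in each genotype. Of all genes, 22.1% (WT) and 19.8% (Cripto KO) were higher. Irx1, Irx3 and Irx5, of the Iroquois family, were among the 5 in both genotypes. Of the other ParaHox genes, Gsx1 and Pdx1 were at or under the counting limit in all libraries.

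Of 16 genes of the posterior streak and tailbud, where Cdx genes are active in the embryo, 14 were 2-fold or more higher in F/A in both genotypes. Of all genes, 22.1% (WT) and 19.8% (Cripto KO) were higher. T (Brachyury) had 13 and 8748 counts in WT and 4 and 5598 in Cripto KO. Between genotypes in F/A the genes of this list did not move as one. Fgf3, Nkx1-2 and Wnt8a were among 4 that were 2-fold or more higher in Cripto KO F/A (4.05% of all genes). Mixl1 and Tbx6 were the 2 that were lower (4.97% of all genes), and the median was 0.17. Wnt3a, the other higher gene, had 6 counts in WT F/A, 28 in Cripto KO F/A, and 1 and 0 in serum/LIF. Its call is therefore not read as a result. With a mean of at least 50 counts required, 2 genes of the list were higher and 0 lower. Retinoic acid, made by Aldh1a2 and degraded by Cyp26a1, is a known inducer of Hox, Meis and Cdx1 expression. Of 8 genes of this response, 2 were higher and 1 lower in Cripto KO F/A (4.05% and 4.97% of all genes), with a median of 0.65. These were Aldh1a2 (319 counts in WT F/A, 1080 in Cripto KO F/A), Crabp2 (105 and 506), a carrier protein of retinoic acid, and Cyp26a1 (4821 and 1740).

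Markers of other cell types were set beside Cdx2, Meis1 and Meis2. Of 12 trophoblast markers kept, 4 were 2-fold or more higher and 2 lower in Cripto KO F/A than in WT F/A, with a median of 0.29. Of all genes, 4.05% were higher and 4.97% lower, which are also the shares beside the next lists of this comparison. Hand1 (196 and 1730 counts), Gata2 and Tfap2a were among the higher and Eomes (1963 and 422) among the lower. The summed level of the 15 trophoblast markers was 277 CPM in WT F/A and 272 in Cripto KO F/A, with Hand1 and Eomes in opposite directions within it. Elf5, Tpbpa and Prl3d1 of this list were at or under the counting limit in all 4 libraries. Lateral plate and cardiac mesoderm markers were higher in 4 of 10 and lower in 0, with sums of 202 and 315 CPM, and none was at the limit in all libraries. Of these 4, Tbx5 had 12 counts in WT F/A, 40 in Cripto KO F/A, and 4 and 0 in serum/LIF. As its counts were mainly in Cripto KO F/A, its call is not read as a result. Fibroblast markers were higher in 4 of 7 and lower in 0, with sums of 75.2 and 199 CPM against 116 and 123 in serum/LIF, and Fap was at the limit throughout. The 4 were Col1a1, Col3a1, Twist2 and Dcn, the last at 5 and 18 counts. Between media in Cripto KO, 4 of 7 were 2-fold or more higher in F/A (19.8% of all genes) and 2 lower (19.2%). The 2 were Dcn (417 counts in serum/LIF, 18 in F/A) and Thy1 (349 and 28). The part of these cell types in the values of Cdx2, Meis1 and Meis2 was not tested.

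Markers of endoderm and of the primed epiblast went the other way. Of all genes, 4.97% were 2-fold or more lower in Cripto KO F/A and 4.05% higher. Definitive endoderm markers were 2-fold or more lower in Cripto KO F/A in 4 of 7 and higher in 0, with Cer1 at 467 and 82 counts, a median of −1.38 and sums of 275 and 134 CPM. Primed epiblast markers were lower in 4 of 7, with Fgf5 at 2206 and 394 counts, a median of −1.84 and sums of 1351 and 658 CPM. The lists share genes and are not independent of each other. Cer1 and Foxa2 are in both, with Cer1 among the lower genes of each, and T is in the primed epiblast and the posterior streak lists. Of 3 neural markers and 7 naive pluripotency markers with a fold, 0 were 2-fold or more higher, and 1, Tfcp2l1, was lower. Under the other scalings 2 naive markers were lower, and with the length correction 0 were lower and 1 neural marker was higher.

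**Figure D5:**
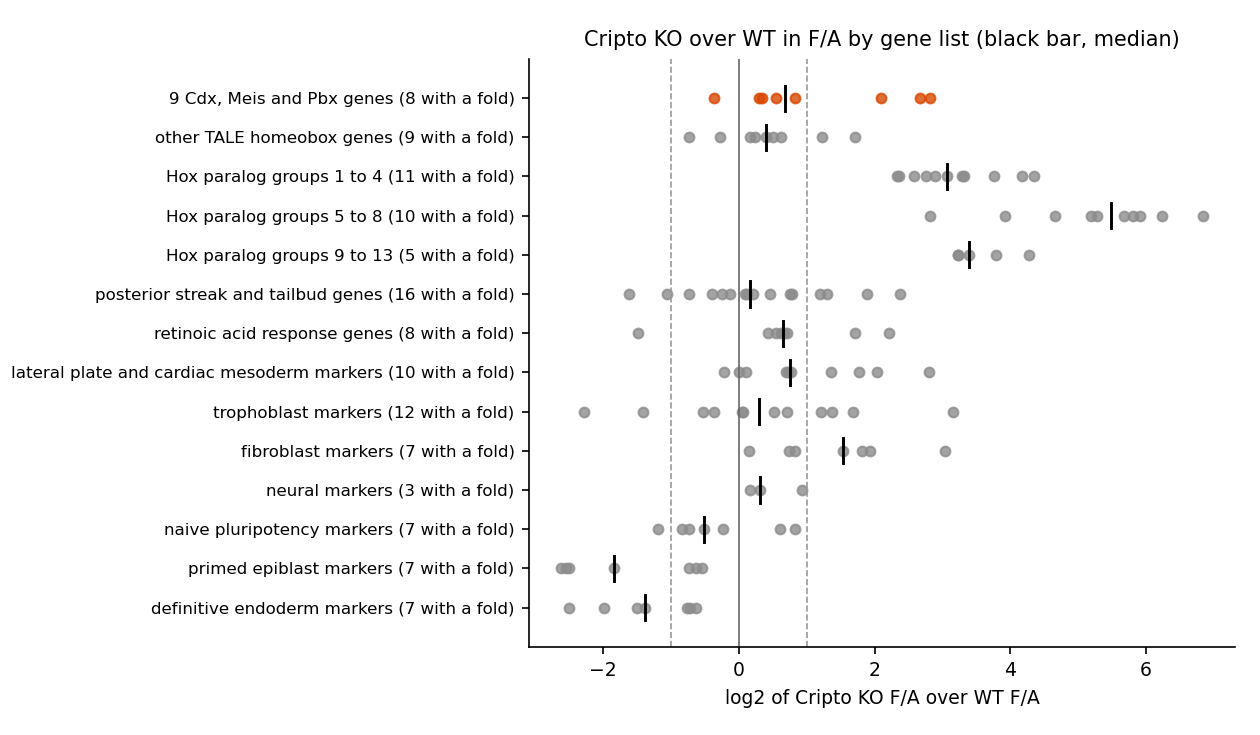
log2 of Cripto KO F/A over WT F/A for each gene with a fold, by list (points), with the median of the list as a black bar and dashed lines at 2-fold. Of the 9 genes (orange), 8 have a fold, of which 3 lie beyond the right dashed line, while the plotted Hox genes, many of which have counts mainly in Cripto KO F/A, lie to its right (11, 10 and 5 of the 11, 11 and 16 in the lists have a fold) and the endoderm and primed epiblast medians (−1.38 and −1.84) to the left of the other dashed line.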

How the data were processed

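Counts per gene were deposited by the authors as whole numbers, made by aligning reads with TopHat2 2.0.13 to mm9 and counting with HTSeq 0.6.1p1 against Ensembl release 67. The deposited normalized signal values are full quantile normalized counts (preprocessCore 1.28.0) of genes kept by a filter at a CPM of 1 (NOISeq 2.8.0). Own quantile normalization of the raw counts gave the same values for all 15462 genes in the 4 libraries.

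Symbols, positions and lengths came from the annotation of the same build (Ensembl release 65). Fold changes were ratios of normalized values with 0 replaced by 0.5, called at 2-fold. A gene at 0 counts in 1 library was set against 3 counts there (6 in Cripto KO F/A), and no fold was formed where both libraries were at or under these. Intervals were 95% Clopper-Pearson intervals of the ratio of raw counts scaled by library totals, or exact Poisson intervals of a level. They cover counting error only. Each library, of 15230856 to 17315442 counts, stands for 1 condition, and no test across libraries was run.

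Named besides the members were, per comparison and list, up to 3 genes with the largest change in each direction among those with at least 50 counts, the 3 nearest profiles of each member, neighbouring genes and Tdgf1. Irx4, Wnt3a and Tbx5 were named for their few counts outside Cripto KO F/A. A gene whose symbol had 2 identifiers or none (Hoxa3, Gsx2, Pou3f1, Sox1) was left out of the lists. The members and lists were chosen with earlier results of these data known. Alternatives were other scalings (total counts, TMM of edgeR 4.0.16, size factors of DESeq2 1.42.0), an added value of 5, a mean of at least 50 counts, no filter, a fold of 3, halved counts of Cripto KO F/A, a correction for length and the longest transcript. The ratio step was checked on simulated counts. Python 3.11.15, pandas 2.3.3, scipy 1.17.1 and R 4.3.3 were used.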

Additional observations from a re-analysis of the deposited data

How the results depend on the processing

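With 1 library per condition, no library could be left out, and no value here has a replicate error. No replicate numbers pair the libraries, and an additive model of genotype and culture, which would leave 1 residual degree of freedom, was not run. Over 31 member changes and 229 recomputed values, 224 kept their direction and their side of the 2-fold limit. This tally overstates the number of separate checks. The values with no filter repeat those of total-count scaling. Requiring a mean of at least 50 counts only drops genes, so the values of the members it keeps could not change. The log2 change of Pbx4 in WT fell short of the limit with the length correction (−0.90). For Meis1, Cripto KO against WT in serum/LIF, the log2 difference of 0.08 turned to −0.090 with total counts, which the alternative with no filter also uses, −0.080 with TMM and −0.076 with DESeq2 size factors, all within its counting interval. At a fold of at least 3, the number of members called between media in Cripto KO went from 8 to 5 (4 higher, 1 lower), by construction of the stricter limit. With no filter and total counts Cdx4 was added, which made 9 members called between media in Cripto KO and 4 between genotypes in F/A. The share of all genes called was computed only at the 2-fold limit on the genes kept by the filter, so these counts have no such share beside them. Depth limited Cdx4 and Cdx2 in serum/LIF most, at 1 to 3 counts.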
